A study of Mus musculus with 9 samples.

Results

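The 10 genes described here encode receptors through which hormones made mainly in peripheral organs reach the brain. Adipor1 and Adipor2 bind adiponectin and Lepr binds leptin, both hormones of adipose tissue. Glp1r and Gipr bind the incretins of the gut, Ghr binds growth hormone, Ghsr binds ghrelin of the stomach, Thra and Thrb are the nuclear receptors of thyroid hormone, and Fgfr1 is a receptor tyrosine kinase that, with a klotho co-receptor, receives endocrine FGF signals. The genes were taken by symbol from the 55536 genes of the deposited tables. All 10 were among the 17457 genes that passed the filter on low counts in the comparisons below.

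The libraries came from hippocampus of hAPP-J20 mice (Tg) and of mice labelled wild type (nTg). J20 is a single transgenic line in which the PDGF-B promoter drives human APP with familial Alzheimer mutations, mostly in neurons, on top of the endogenous mouse gene. The series set an age before plaque formation, 15 weeks, beside one after it, 24 weeks, with 3 Tg libraries at each age. The nTg libraries numbered 2 at 24 weeks (replicates 1 and 3) and 1 at 15 weeks (replicate 2). A library is named by its group and replicate number (Tg_24w_3), and no treatment is named for any of them. The labelled batch has the same value as the age in each library, so the effects of age and of batch cannot be told apart. The comparisons of Tg at a single age with nTg pooled the nTg libraries of both ages. In them, genotype is therefore partly mixed with age and batch. The replicates are labelled biological, but nothing says that each is 1 animal or 1 sex, so p-values speak of the spread among samples, which may partly be technical.

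Total counts lay between 12733452, in Tg_24w_3, and 21529266. This library stood apart from the others: chi-square per degree of freedom between it and each of the other 8 was 57.3 to 80.7, against at most 36.8 between any pair that did not include it, and the highest values among those pairs involved nTg_24w_1. Results are therefore also given without both of these libraries where this mattered. The tissue label was checked against marker genes. All 6 pyramidal cell markers and all 6 granule cell markers of the hippocampus were above 1 CPM (read counts scaled to library size and normalised between libraries by the TMM method) in each group. The pyramidal cell markers summed to 633 to 860 CPM. The granule cell markers summed to 181 to 199 CPM in 15-week Tg, 156 to 274 in 24-week Tg and 230 to 270 in nTg. Choroid plexus markers were also detected, 10 of 10 above 1 CPM in each group, at a summed 1870 to 3890 CPM in 15-week Tg, 1920 to 6730 CPM in 24-week Tg and 5130 to 6890 CPM in nTg. All 6 thalamic, all 6 striatal and at least 5 of 6 neocortical markers likewise had means of at least 1 CPM in each group. Over the libraries they summed to 98.4 to 130.0, 105.0 to 277.0 and 91.1 to 150.0 CPM. In bulk tissue, fewer cells of a type and less RNA per cell cannot be told apart.

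The receptors belong to several structural families. The adiponectin receptors are membrane proteins of the PAQR family and act through AMP-activated kinase, PPAR-alpha and an intrinsic ceramidase activity. The leptin and growth hormone receptors are class I cytokine receptors that signal through the kinase JAK2 and STAT proteins, and the incretin and ghrelin receptors couple to G proteins. Thyroid hormone receptors sit on DNA, where they repress target genes without hormone and activate them with it. In rodents, the leptin receptor is abundant in choroid plexus and hypothalamus, the ghrelin receptor is found in hippocampal neurons, and Thra is the main thyroid hormone receptor gene of the brain.

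Receptor levels spanned nearly 3 orders of magnitude per transcript length. Mean TPM (the length-corrected level that the authors deposited, n = 9 libraries) was 335.0 ± 67.6 (SD) for Thra, which ranked 262 among the genes tested. It was 30.6 ± 4.38 for Adipor1, 22.3 ± 2.55 for Fgfr1, 17.5 ± 4.04 for Adipor2 and 9.33 ± 2.03 for Thrb, whose ranks ran from 3243 to 7569. A lower tier held Ghr at 1.98 ± 0.223 TPM, Lepr at 1.54 ± 0.561, Glp1r at 1.34 ± 0.781, Gipr at 0.709 ± 0.182 and Ghsr at 0.382 ± 0.141, with ranks from 12916 to 16748. The adiponectin, thyroid hormone and FGF receptors thus stood above the leptin, growth hormone, incretin and ghrelin receptors in all 9 libraries. Neighbours in this order were compared within libraries on the log2(TPM + 0.01) scale with a two-sided exact sign-flip permutation test, adjusted by Benjamini-Hochberg over the 9 neighbouring pairs, where the smallest raw p that the sign patterns allow is 0.00391. Of the 9 pairs, 7 passed the threshold of 0.05 in this test. The order was taken from the mean TPM of the same 9 libraries. These p-values are therefore a description and not an independent test of the order.

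Thra exceeded Adipor1 by 3.44 ± 0.12 on the log2 scale (SD over libraries, exact adjusted p = 0.00703, higher in 9 of 9 libraries). Fgfr1 exceeded Adipor2 by only 0.38 ± 0.3 and in 7 of 9 libraries (exact adjusted p = 0.0234). Ghr and Lepr differed by 0.45 ± 0.66 (exact adjusted p = 0.0791, Ghr higher in 6 of 9), and Lepr and Glp1r by 0.27 ± 1.17 (exact adjusted p = 0.516, Lepr higher in 6 of 9), so neither of these pairs was resolved. Glp1r exceeded Gipr by 0.78 ± 0.93 (exact adjusted p = 0.0402, 8 of 9 libraries), a mean difference smaller than its SD and a call that was lost when any 1 library other than Tg_24w_3 was left out. Without Tg_24w_3 and nTg_24w_1, the mean of Glp1r stood above that of Lepr.

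**Figure D1:**
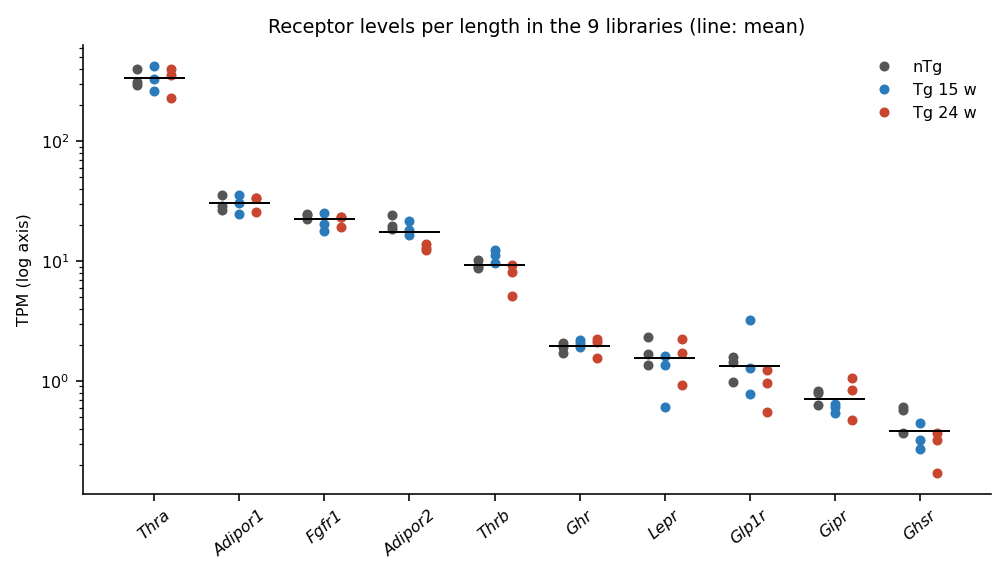
Level per transcript length of the 10 receptor genes in each of the 9 libraries, as TPM on a log axis, ordered by mean. Points are libraries coloured by group and lines are means over 9 libraries, from 335.0 TPM for Thra to 0.382 TPM for Ghsr.

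The genes also differed in how much they varied between libraries. Fgfr1 and Ghr were the steadiest, with coefficients of variation of TMM-normalised CPM of 6.93% and 9.73% over the 9 libraries. For Ghr the counting error alone gave 8.16%. Glp1r at 51.2% and Lepr at 37.0% varied most, and their highest library exceeded the lowest 4.56-fold and 4.15-fold, where counting error gave 12.3% and 10.6%. Ghsr and Gipr varied by 34.7% and 31.3%, but their counts were so low (5 to 19 and 15 to 25 reads per library) that counting error gave 26.7% and 22.3%.

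None of the 10 receptors passed the threshold (edgeR quasi-likelihood test, adjusted p below 0.05 over all genes tested) in any comparison. The share of all genes called was 0.0% for Tg against nTg over both ages, 0.0% for Tg at 15 weeks against nTg, 0.132% for Tg at 24 weeks against nTg, 0.0344% for Tg at 24 weeks against Tg at 15 weeks and 0.0% for the interaction of genotype and age. At an unadjusted edgeR p below 0.05, 1 member (Adipor2) was counted for Tg against nTg over both ages, where 5.39% of all genes were. The count was 0 for Tg at 15 weeks against nTg (3.29% of all genes) and 1, again Adipor2, for Tg at 24 weeks against nTg (13.0%). It was 2, Adipor2 and Thrb, for Tg at 24 weeks against Tg at 15 weeks (15.2%), and 1, Adipor2, for the interaction (2.08%). Other tools gave 1 call, Adipor2 in Tg at 24 weeks against nTg, with DESeq2 (1.25% of genes called) and with limma voom with quality weights (1.36%). In the other 4 comparisons both tools called 0 members (0.2%, 0.0115%, 1.63% and 0.00511% of genes called with DESeq2, and 0.0401%, 0.0286%, 0.584% and 0.00511% with voom). The number of members whose groups did not overlap was 0 in Tg against nTg over both ages (2.24% of all genes in either direction), 1 (Thrb) in Tg at 15 weeks against nTg (10.4%), 1 (Adipor2) in Tg at 24 weeks against nTg (16.7%) and 2 between the ages of Tg (20.8%).

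**Figure D2:**
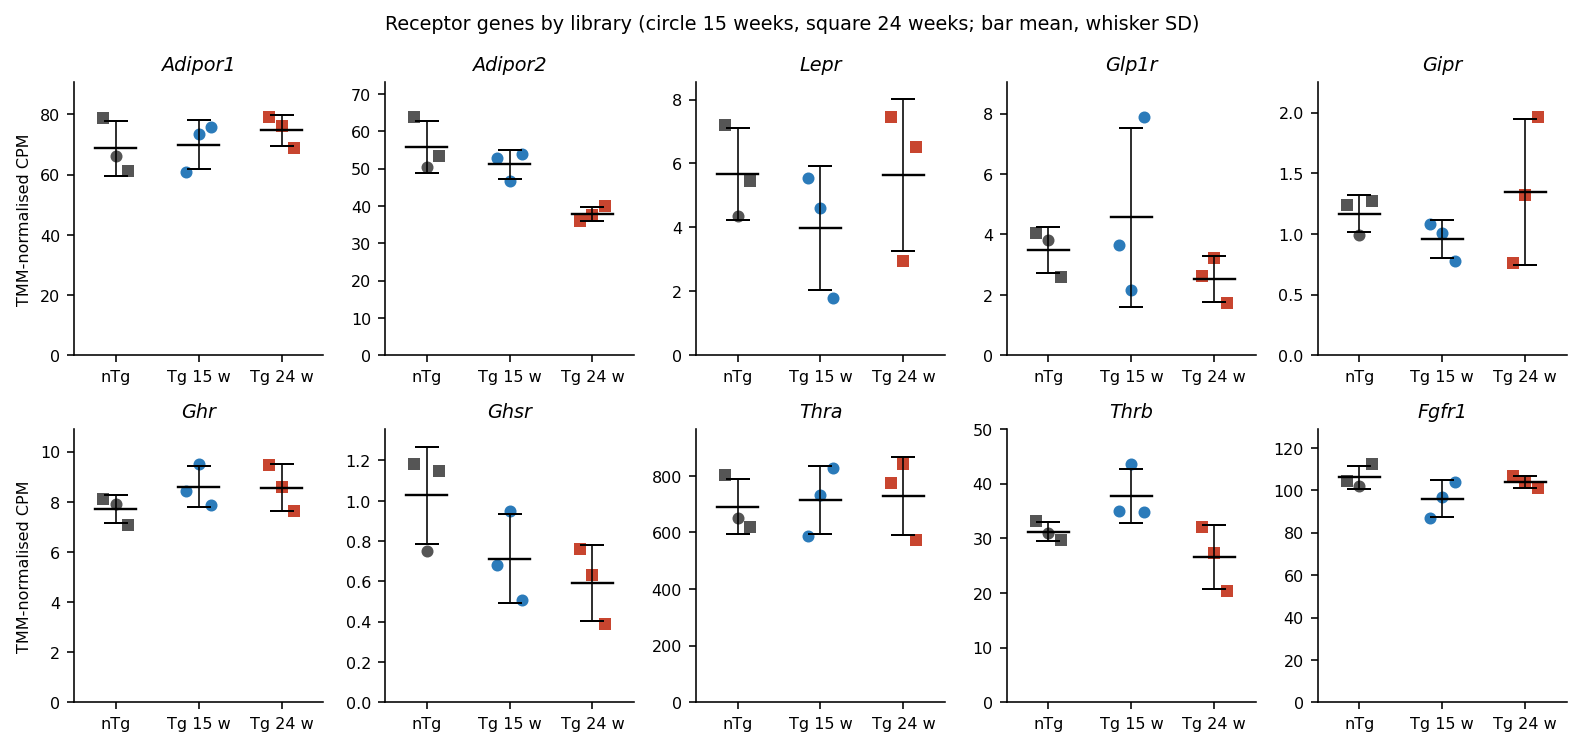
TMM-normalised CPM of each receptor gene by library, with circles for 15 weeks and squares for 24 weeks, bars for group means and whiskers for SD (n = 3 each; nTg holds both ages). Adipor2 is the only gene of the 10 whose 3 libraries of Tg at 24 weeks, at 36.1 to 39.9 CPM, all lie below each of the other 6.

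Adipor1 (chromosome 1, 134415378 to 134433351, GRCm38) and Adipor2 (chromosome 6, 119353150 to 119417704) encode the 2 adiponectin receptors. The windows around their annotated starts are shown because this pair of related members differed in pattern across the groups. They are from RefSeq (build GRCm38.p6), 250 bases before to 50 after the start, 5′ to 3′ on the strand of the gene, and capitals mark the GC box GGGCGG, searched on both strands. The first is at chr1:134415128-134415427 (+) and the second at chr6:119388685-119388984 (-), whose start lies 48 bases from the nearest GENCODE transcript start of Adipor2. Adipor2 has 5 annotated transcripts, and this start lies inside the span of the gene given above, not at its 5′ end.
Adipor1: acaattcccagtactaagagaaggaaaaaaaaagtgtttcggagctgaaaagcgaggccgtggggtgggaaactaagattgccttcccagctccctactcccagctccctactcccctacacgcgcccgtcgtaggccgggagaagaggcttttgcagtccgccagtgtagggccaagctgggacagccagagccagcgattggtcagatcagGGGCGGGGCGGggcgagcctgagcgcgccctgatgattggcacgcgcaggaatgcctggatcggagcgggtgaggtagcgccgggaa
Adipor2: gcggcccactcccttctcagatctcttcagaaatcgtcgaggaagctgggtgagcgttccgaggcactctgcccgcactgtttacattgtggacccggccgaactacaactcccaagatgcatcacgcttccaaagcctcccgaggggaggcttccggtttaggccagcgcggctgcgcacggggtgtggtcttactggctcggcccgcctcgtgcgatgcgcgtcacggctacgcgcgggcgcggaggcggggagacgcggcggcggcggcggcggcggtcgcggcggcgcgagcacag
RefSeq gives Adipor1 a second window, at chr1:134415414-134415713, which is not printed. The Adipor1 window shown held 2 GC boxes, which overlap by 1 base, and the Adipor2 window held 0, while 35.7% of the 32851 promoter windows of the table held at least 1. The second Adipor1 window held 3 GC boxes. The Adipor2 window held 41 CpG, against 21 and 40 in the first and second Adipor1 windows (median of all windows 7), and its GC content was 68.7% against 61.0% and 76.7% (median 52.7%), so the order of the pair in GC content depends on the window. None of the 3 windows held, on either strand, the TATA box TATAAA (present in 13.6% of windows), the E-box CACGTG (7.15%) or the cyclic AMP response element TGACGTCA (1.79%). Of the 10 members, 7 had a window in the table, and Gipr, Thra and Fgfr1 had none. These matches describe letters only and say nothing of factor binding.

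Adipor2 stood at 36.1, 37.6 and 39.9 CPM in 24-week Tg and at 52.8, 46.7 and 53.9 CPM in 15-week Tg. The nTg libraries gave 63.7 CPM in nTg_24w_1, 50.3 in nTg_15w_2 and 53.4 in nTg_24w_3. The 3 libraries of Tg at 24 weeks lay below all 6 others, a pattern shown by 721 genes (4.13%). Against nTg, where 7.03% of genes had each library of Tg at 24 weeks below each nTg library, Adipor2 was 1.46-fold lower (log2 difference -0.55 ± 0.13 SE, edgeR adjusted p = 0.17, rank 129 of 17457 by p). The adjusted p was 0.0108 with DESeq2 at -0.57 and 0.0418 with voom at -0.5, and over all alternatives run it lay between 0.0108 and 0.427. The direction was the same in each of them, with -0.53 (edgeR adjusted p = 0.0707) without Tg_24w_3 and nTg_24w_1 and -0.62 (edgeR adjusted p = 0.421) against the 24-week nTg libraries alone.

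Against Tg at 15 weeks, where 11.2% of genes had the same complete separation downwards, Adipor2 differed by -0.41 ± 0.13 (edgeR adjusted p = 0.229). This comparison shares the libraries of Tg at 24 weeks with the preceding one. At 15 weeks the Tg and nTg libraries overlapped, and the difference was -0.14 ± 0.13 (edgeR adjusted p = 1.0); against the single 15-week nTg library it was 0.01. The interaction, which asks whether the Tg minus nTg difference changed with age, was -0.63 ± 0.26 (edgeR adjusted p = 1.0) and rests on that 1 library. Over both ages with age as a term, Adipor2 differed by -0.39 ± 0.14 (edgeR adjusted p = 0.857). The summed level of 6 astrocyte markers was lower in the same 3 libraries, at 1950 to 2500 CPM in Tg at 24 weeks. It was 2750 to 3000 in 15-week Tg and 2630 to 2920 in nTg, and all 6 markers were above 1 CPM in each group. The median of the 6 markers, on the log2 scale from the median of the libraries, overlapped between Tg at 24 weeks and nTg. It was -0.0, -0.09 and -0.13 in 24-week Tg, 0.04 to 0.09 in 15-week Tg, and -0.11, 0.01 and 0.11 in nTg_24w_1, nTg_15w_2 and nTg_24w_3. Meningeal markers (8 of 8 above 1 CPM) summed higher in the 3 libraries of Tg at 24 weeks, and so did hypothalamic markers. The meningeal sum was 210.0 to 273.0 CPM there, 139.0 to 209.0 in 15-week Tg and 127.0 to 162.0 in nTg. The median of the meningeal markers overlapped between the groups, at 0.35, -0.03 and 0.53 in 24-week Tg, -0.64 to 0.08 in 15-week Tg and -0.65 to 0.05 in nTg. The part of these cell types in the Adipor2 values was not tested.

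Adipor1 did not show this separation. It stood at 78.9, 76.1 and 68.8 CPM in 24-week Tg, 60.8, 73.4 and 75.6 CPM in 15-week Tg, and 78.7, 66.3 and 61.1 CPM in nTg_24w_1, nTg_15w_2 and nTg_24w_3. The 3 groups overlapped, and Tg at 24 weeks differed from nTg by 0.13 ± 0.13 on the log2 scale (edgeR adjusted p = 0.705). The ratio of Adipor1 to Adipor2 within a library, which does not depend on scaling between libraries, was 2.6, 2.41 and 2.05 in 24-week Tg on the TPM scale. It was 1.37, 1.87 and 1.67 in 15-week Tg and 1.47, 1.57 and 1.36 in nTg_24w_1, nTg_15w_2 and nTg_24w_3. Tg at 24 weeks lay above all others, while Tg at 15 weeks overlapped nTg.

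All 6 Tg libraries were tested against the 3 nTg libraries. The mean log2 ratio was 0.96 ± 0.34 (SD, n = 6) in Tg and 0.55 ± 0.1 (n = 3) in nTg, a difference of 0.41 with exact permutation p = 0.0952, two-sided, and 0.19 after adjustment over the 2 ratios tested, where 84 splits allow p down to 0.0238. In the 24-week libraries alone the difference was 0.73 (exact adjusted p = 0.4), a design of 3 against 2 that cannot pass the threshold. The ratio therefore did not pass.

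**Figure D3:**
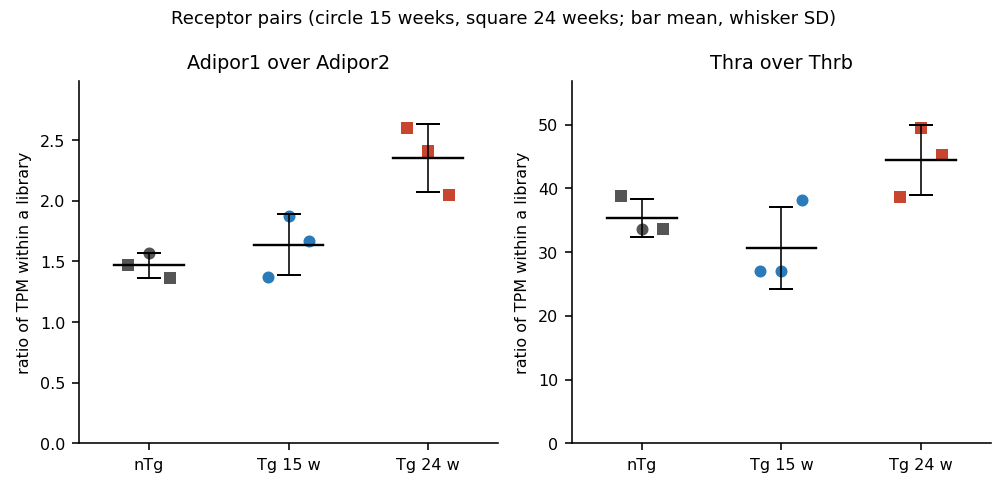
Ratio of TPM within a library for the 2 receptor pairs, with circles for 15 weeks, squares for 24 weeks, bars for group means and whiskers for SD. The Adipor1 to Adipor2 ratio was 2.05 to 2.6 in 24-week Tg and 1.36 to 1.87 in the other 6 libraries, and the Thra to Thrb ratio was 38.6 to 49.5 in Tg at 24 weeks against 27.0 to 38.8 elsewhere.

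Of the adiponectin pathway list of 24 genes, 23 were tested and 0 passed the edgeR threshold in each of the 4 group comparisons; at unadjusted p below 0.05 there were 7 in Tg at 24 weeks against nTg, where 13.0% of all genes were counted. The list's median log2 difference there was 0.019, beside 0.027 over all genes tested. Cdh13, which encodes T-cadherin, an adiponectin-binding surface protein, stood at 81.4 to 88.8 CPM in 24-week Tg, 68.2 to 79.7 in 15-week Tg and 49.1 to 65.7 in nTg. Its difference between Tg at 24 weeks and nTg was 0.56 ± 0.14 (edgeR adjusted p = 0.173, range over the alternatives 0.027 to 0.505). The 3 groups were apart, and in single pairs of them 10.4% to 20.8% of all genes were. The share apart in all 3 pairs at once was not counted, and Cdh13 was named for its small p in these data. Paqr8, a progestin receptor of the same protein family as the adiponectin receptors, stood at 86.5 to 117.0 CPM in Tg at 24 weeks against 134.0 to 161.0 in nTg, a difference of -0.5 ± 0.14 (edgeR adjusted p = 0.248).

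Lepr (chromosome 4, 101717404 to 101815352) stood at 7.44, 2.96 and 6.52 CPM in 24-week Tg, 5.53, 4.61 and 1.8 in 15-week Tg, and 7.2, 4.37 and 5.45 in nTg_24w_1, nTg_15w_2 and nTg_24w_3. Its variation ran within the groups, which overlapped throughout. The log2 difference was 0.004 ± 0.41 for Tg at 24 weeks against nTg (edgeR adjusted p = 0.998) and -0.52 ± 0.41 for Tg at 15 weeks against nTg (edgeR adjusted p = 1.0). The 2 libraries lowest in Lepr, Tg_15w_3 and Tg_24w_2, were also the 2 lowest in summed choroid plexus markers, at 1870 and 1920 CPM. The 2 highest in Lepr, Tg_24w_1 and nTg_24w_1, were the 2 highest in those markers, at 6730 and 6890 CPM. In the libraries between, Lepr did not keep the order of the markers. It was 4.61, 5.53, 4.37, 6.52 and 5.45 CPM at marker sums of 3350, 3890, 5130, 5270 and 6630 CPM. Ghr was 7.87 and 8.61 CPM in Tg_15w_3 and Tg_24w_2, and 9.47 and 8.13 CPM in Tg_24w_1 and nTg_24w_1. The part of choroid plexus in the Lepr values was not tested. Hypothalamic markers, of another tissue rich in Lepr, were low: their summed level was 2.23 to 5.06 CPM in 15-week Tg, 5.67 to 9.27 in 24-week Tg and 2.11 to 2.88 in nTg, with at most 3 of 8 markers above 1 CPM in a group.

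**Figure D4:**
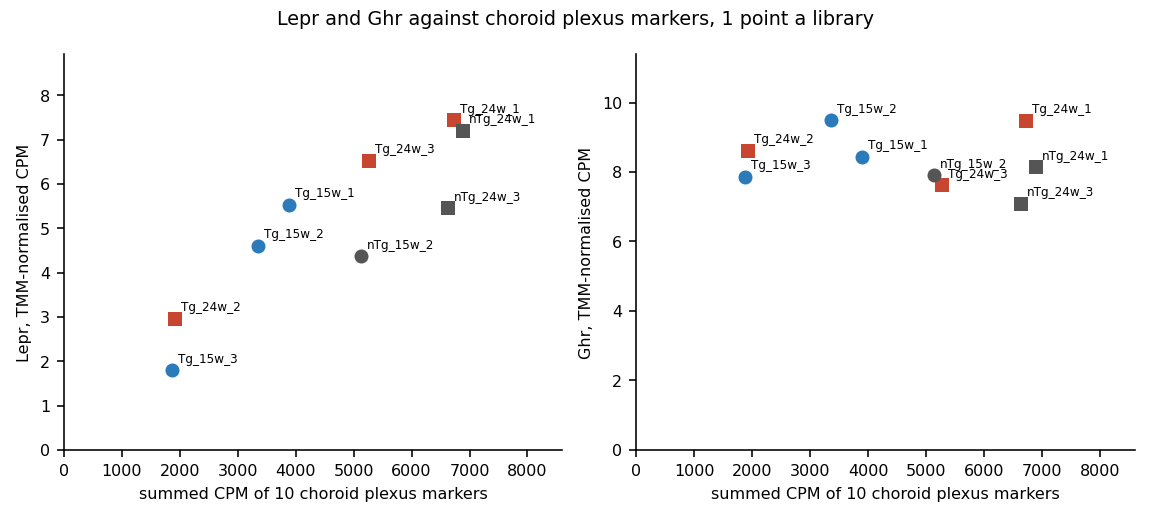
TMM-normalised CPM of Lepr (left) and Ghr (right) against the summed CPM of 10 choroid plexus markers, 1 point per library, with circles for 15 weeks, squares for 24 weeks and colours for groups. Lepr is lowest, at 1.8 and 2.96 CPM, in the 2 libraries with marker sums of 1870 and 1920 CPM, and lies between 4.37 and 7.44 CPM in the others. Ghr lies between 7.09 and 9.49 CPM in all 9.

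Of the leptin pathway list of 14 genes, 13 were tested and 0 passed the edgeR threshold in the 4 group comparisons. In Tg at 24 weeks against nTg, 5 had an unadjusted p below 0.05 (13.0% of all genes) and the median log2 difference was 0.004 (0.027 over all genes). Irs2, an adaptor shared by insulin and leptin signalling, stood at 41.6 to 53.0 CPM in 24-week Tg and at 61.4 to 69.7 in nTg, with a difference of -0.48 ± 0.12 (edgeR adjusted p = 0.216). Stat3, the transcription factor activated downstream of Lepr, was 0.59 ± 0.17 apart between Tg at 24 weeks (40.1 to 58.0 CPM) and Tg at 15 weeks (29.3 to 33.8 CPM), with edgeR adjusted p = 0.215; its nTg libraries reached 39.5 CPM.

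Glp1r (chromosome 17, 30901817 to 30940791) encodes the GLP-1 receptor, the target of incretin drugs, and couples to cyclic AMP. It stood at 2.63, 3.22 and 1.73 CPM in 24-week Tg, 3.65, 2.17 and 7.87 in 15-week Tg, and 4.03, 3.83 and 2.6 in nTg_24w_1, nTg_15w_2 and nTg_24w_3. A single library, Tg_15w_3, was far above the other 8. The difference between Tg at 24 weeks and Tg at 15 weeks was -0.82 ± 0.41 (edgeR adjusted p = 0.359) and was -0.18 without Tg_15w_3. Likewise, the difference between Tg at 15 weeks and nTg was 0.38 ± 0.4 (edgeR adjusted p = 1.0) with that library and -0.26 without it. Prkcd, 1 of the 6 thalamic markers, was also highest in Tg_15w_3, at 32.3 CPM against 9.19 to 16.2 in the others. The 6 markers together summed to 129.0 CPM in Tg_15w_3, 130.0 in Tg_15w_1, 123.0 in Tg_15w_2, 98.4 to 121.0 in 24-week Tg and 107.0 to 115.0 in nTg. The median of the 6 markers in Tg_15w_3 was -0.12 on the log2 scale from the median of the libraries. The part of thalamic cells in the Glp1r value was not tested.

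Gipr (chromosome 7, 19156061 to 19166127), the receptor of the other incretin, GIP, had only 15 to 25 reads per library, at 0.76 to 1.96 CPM. Its group means were 1.35 ± 0.602 CPM (SD, n = 3) in 24-week Tg, 0.958 ± 0.156 in 15-week Tg and 1.17 ± 0.153 in nTg, with overlapping groups. The log2 difference between Tg at 24 weeks and nTg was 0.2 ± 0.41 (edgeR adjusted p = 0.864). No difference was detected, and the part of depth in this was not tested. Of the 19 incretin and glucagon pathway genes, 16 were tested and 0 passed the edgeR threshold in the 4 group comparisons, with 1 at unadjusted p below 0.05 in Tg at 24 weeks against nTg (13.0% of all genes). That gene was Arrb2, which encodes beta-arrestin 2, at 0.34 ± 0.16 (edgeR adjusted p = 0.384). The median of the list was -0.1 there, beside 0.027 over all genes.

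Ghr (chromosome 15, 3317760 to 3583492) was the steadiest of the low-level receptors. It stood at 9.47, 8.61 and 7.62 CPM in 24-week Tg, 8.44, 9.49 and 7.87 in 15-week Tg, and 8.13, 7.9 and 7.09 in nTg_24w_1, nTg_15w_2 and nTg_24w_3. The groups overlapped, and Tg differed from nTg over both ages by 0.15 ± 0.15 (edgeR adjusted p = 0.881). None of the 13 tested genes of the 17 in the growth hormone pathway list passed the edgeR threshold in the 4 group comparisons, while 4 had an unadjusted p below 0.05 in Tg at 24 weeks against nTg (13.0% of all genes) and the median was 0.163 (0.027 over all genes). Socs3, a feedback inhibitor of cytokine receptors, stood at 1.74 to 2.13 CPM in 24-week Tg and 0.855 to 1.29 in 15-week Tg, a difference of 0.94 ± 0.34 (edgeR adjusted p = 0.249), and in nTg at 1.24 to 2.0 CPM. Gh, the hormone gene and 1 of 5 pituitary markers, was at 0 in each group. The 5 markers summed to 1.1 to 1.94 CPM in 15-week Tg, 1.34 to 2.18 in 24-week Tg and 1.19 to 1.27 in nTg. In each group 1 of the 5 had a mean of at least 1 CPM.

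Ghsr (chromosome 3, 27371351 to 27378010) was the least abundant member, with 15, 12 and 5 reads in 24-week Tg, 12, 18 and 11 in 15-week Tg and 19, 15 and 19 in nTg_24w_1, nTg_15w_2 and nTg_24w_3. These reads corresponded to 0.595 ± 0.186 CPM in 24-week Tg, 0.715 ± 0.225 in 15-week Tg and 1.02 ± 0.243 in nTg (SD, n = 3). The highest library of Tg at 24 weeks, 0.76 CPM, overlapped the lowest nTg library, 0.745 CPM. The log2 difference was -0.74 ± 0.44 (edgeR adjusted p = 0.488), and -0.46 without Tg_24w_3 and nTg_24w_1. A difference was not detected, and the part of depth in this was not tested.

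Among the 11 genes of the ghrelin pathway list, 10 were tested and 1 passed the edgeR threshold, in Tg at 24 weeks against nTg (0.132% of all genes). At unadjusted edgeR p below 0.05 there were 4 (13.0% of all genes), and the median was 0.107 (0.027 over all genes). Drd1, the dopamine D1 receptor, which forms complexes with the ghrelin receptor in mouse hippocampal neurons, stood at 11.4, 13.2 and 10.5 CPM in 24-week Tg, 5.64, 6.36 and 6.35 in 15-week Tg, and 5.09, 3.33 and 3.76 in nTg_24w_1, nTg_15w_2 and nTg_24w_3. The 3 groups did not overlap, where 10.4% to 20.8% of all genes did not in single pairs of groups. The share for all 3 pairs at once was not counted. Drd1 was higher in 24-week Tg than in nTg by 1.54 ± 0.2 on the log2 scale (edgeR adjusted p = 0.0121, range over the alternatives 1.68e-08 to 0.0955). The call was lost without nTg_15w_2 (edgeR adjusted p = 0.0928), without nTg_24w_3 (0.0514), against the 24-week nTg libraries alone (0.0899) and with limma on TPM (0.0955 with a pseudocount of 0.1 and 0.0889 with 1). The 6 striatal markers, of which Drd1 is one, summed to 159.0, 120.0 and 277.0 CPM in Tg at 24 weeks against 105.0 to 113.0 in 15-week Tg and 113.0 to 137.0 in nTg. Their part in the Drd1 values was not tested.

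Thra (chromosome 11, 98740638 to 98769006) was the most abundant of the 10 receptors. It stood at 773.0, 839.8 and 572.7 CPM in 24-week Tg, 588.6, 731.5 and 827.2 in 15-week Tg, and 802.4, 650.6 and 619.6 in nTg_24w_1, nTg_15w_2 and nTg_24w_3. The groups overlapped fully, with differences from nTg of 0.08 ± 0.17 for Tg at 24 weeks (edgeR adjusted p = 0.865) and 0.04 ± 0.17 for Tg at 15 weeks (edgeR adjusted p = 1.0); both were within the error, and the first was -0.04 on the TPM scale. Gene counts join the hormone-binding Thra products with the alpha-2 form, which does not bind the hormone. Nr1d1, which encodes the clock repressor REV-ERB-alpha, lies on the opposite strand and shares 263 exon bases with Thra, 5.7% of its exons. The sources used here do not give the strand setting of the counting, so reads there cannot be assigned with certainty, and Nr1d1 itself stood at 26.8 to 119.0 CPM.

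Thrb (chromosome 14, 17660261 to 18038090), the second thyroid hormone receptor gene, did not overlap between the ages of Tg mice. It stood at 32.1, 27.2 and 20.3 CPM in 24-week Tg, 35, 43.5 and 34.8 in 15-week Tg, and 33.1, 30.9 and 29.6 in nTg_24w_1, nTg_15w_2 and nTg_24w_3. All libraries of Tg at 15 weeks exceeded those of Tg at 24 weeks, and 11.2% of all genes were separated in this direction. They also exceeded those of nTg, where 5.42% of genes had Tg at 15 weeks above each nTg library. The difference between Tg at 24 and 15 weeks was -0.49 ± 0.17 (edgeR adjusted p = 0.235, range over the alternatives 0.108 to 0.636), and -0.37 without Tg_24w_3 and nTg_24w_1. Against nTg, Tg at 15 weeks differed by 0.27 ± 0.16 (edgeR adjusted p = 1.0) and Tg at 24 weeks, which overlapped nTg, by -0.22 ± 0.17 (edgeR adjusted p = 0.581). None of these passed the threshold.

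The ratio of Thra to Thrb on the TPM scale was 38.6, 49.5 and 45.2 in 24-week Tg, 27.0, 27.0 and 38.1 in 15-week Tg, and 38.8, 33.7 and 33.6 in nTg_24w_1, nTg_15w_2 and nTg_24w_3. Tg at 24 weeks lay above Tg at 15 weeks in each library and overlapped nTg at its lowest value. Over all 6 Tg libraries the mean log2 ratio was 5.19 ± 0.37 (SD) against 5.14 ± 0.12 in the 3 nTg libraries (exact permutation p = 0.81, two-sided, and 0.81 after adjustment).

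Of the 22 genes of thyroid hormone transport and receptor complexes, all 22 were tested and 0 passed the edgeR threshold in the 4 group comparisons, with a median of -0.155 in Tg at 24 weeks against nTg (0.027 over all genes) and 3 at unadjusted p below 0.05 (13.0% of all genes). Dio2, the deiodinase that makes active hormone in astrocytes, stood at 27.4, 29.4 and 30.6 CPM in 24-week Tg, 48.5, 38.5 and 46.4 in 15-week Tg, and 40.1, 49.9 and 42.9 in nTg_24w_1, nTg_15w_2 and nTg_24w_3. The 3 libraries of Tg at 24 weeks were below all 6 others, as for Adipor2 (4.13% of all genes). The astrocyte markers given above were lower there in sum, while their median overlapped nTg, and their part in the Dio2 values was not tested. Dio2 differed between Tg at 24 weeks and nTg by -0.6 ± 0.14 (edgeR adjusted p = 0.168, range over the alternatives 0.0108 to 0.626). This difference passed without Tg_24w_3 and nTg_24w_1 at -0.74 (edgeR adjusted p = 0.0297). Slc16a10, a transporter of thyroid hormone, stood at 1.37 to 2.01 CPM in 24-week Tg and 3.13 to 3.94 in nTg, a difference of -1.13 ± 0.26 (edgeR adjusted p = 0.157). Slco1c1, the thyroxine transporter of brain vessels and astrocytes, had the smallest p of the list in Tg at 15 weeks against nTg, at -0.59 ± 0.2 (edgeR adjusted p = 1.0).

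The 14 thyroid hormone target genes were all tested and 0 passed the edgeR threshold in the 4 group comparisons, with medians of -0.062 in 15-week Tg and 0.083 in Tg at 24 weeks against nTg (0.0 and 0.027 over all genes), and 3 genes at unadjusted p below 0.05 in the latter (13.0% of all genes). Mbp, the myelin protein gene, stood at 1940.0 to 2620.0 CPM in 24-week Tg, 1950.0 to 2500.0 in 15-week Tg and 2730.0 to 3590.0 in nTg. All 6 Tg libraries were below the 3 nTg libraries, where 1.11% of genes were lower in this way, and the difference over both ages was -0.47 ± 0.15 (edgeR adjusted p = 0.773). The 6 oligodendrocyte markers, Mbp among them, summed to 3960 to 5020 CPM in Tg and 5160 to 6260 in nTg, and their part was not tested. Nrgn, the postsynaptic protein neurogranin, stood at 1610.0 to 1680.0 CPM in Tg at 24 weeks against 1150.0 to 1370.0 in 15-week Tg, at 0.37 ± 0.14 (edgeR adjusted p = 0.253).

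Fgfr1 (chromosome 8, 25513654 to 25575718) was the least variable member. It stood at 106.9, 104.1 and 101.2 CPM in 24-week Tg, 86.8, 97.0 and 104.1 in 15-week Tg, and 104.5, 101.8 and 112.2 in nTg_24w_1, nTg_15w_2 and nTg_24w_3. The groups overlapped. Differences from nTg were -0.02 ± 0.12 for Tg at 24 weeks (edgeR adjusted p = 0.955) and -0.16 ± 0.12 for Tg at 15 weeks (edgeR adjusted p = 1.0). Its antisense neighbour Gm16159, which shares 164 exon bases with it, did not exceed 0.628 CPM.

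The FGF receptor pathway list held 25 genes, of which 22 were tested and 1 passed the edgeR threshold, in Tg at 24 weeks against nTg (0.132% of all genes). Dusp6, a phosphatase of ERK that FGF signalling induces, stood at 23.5, 24.4 and 21.3 CPM in 24-week Tg, 27.2, 26.0 and 31.8 in 15-week Tg, and 42.8, 42.0 and 37.1 in nTg_24w_1, nTg_15w_2 and nTg_24w_3. The 3 groups did not overlap, with nTg highest, where 10.4% to 20.8% of all genes did not overlap in single pairs of groups. The share for all 3 pairs at once was not counted. Dusp6 was lower in 24-week Tg than in nTg by -0.81 ± 0.13 on the log2 scale (edgeR adjusted p = 0.037, range over the alternatives 5.49e-06 to 0.259). The call was lost when any 1 library other than Tg_24w_3 was left out (edgeR adjusted p = 0.0748 to 0.259), against the 24-week nTg libraries alone (0.255) and with limma on TPM (0.169 and 0.162). Oligodendrocyte markers, whose sums are given above, were likewise highest in nTg, and their part here was not tested. In Tg at 15 weeks Dusp6 differed from nTg by -0.53 ± 0.13 (edgeR adjusted p = 1.0).

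Spry4, a feedback inhibitor of FGF receptor signalling, stood at 3.14 to 5.44 CPM in 24-week Tg, 5.42 to 6.63 in 15-week Tg and 8.66 to 12.9 in nTg. All 6 Tg libraries were thus below the 3 nTg libraries, as were those of 1.11% of all genes. Its difference in 24-week Tg was -1.22 ± 0.22 (edgeR adjusted p = 0.0598, range over the alternatives 0.00015 to 0.296). At unadjusted p below 0.05, 9 of the 22 genes were counted in Tg at 24 weeks against nTg, beside 13.0% of all genes, and the median was -0.177 beside 0.027 over all genes tested. The list was chosen with earlier results of these data known, so these values are a description and not a test of the list. Fgfrl1, a receptor-like protein without a kinase domain, stood at 19.7 to 22.1 CPM in 24-week Tg and 10.1 to 15.8 in 15-week Tg, at 0.64 ± 0.21 (edgeR adjusted p = 0.229), while nTg ranged from 13.6 to 23.0 CPM.

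**Figure D5:**
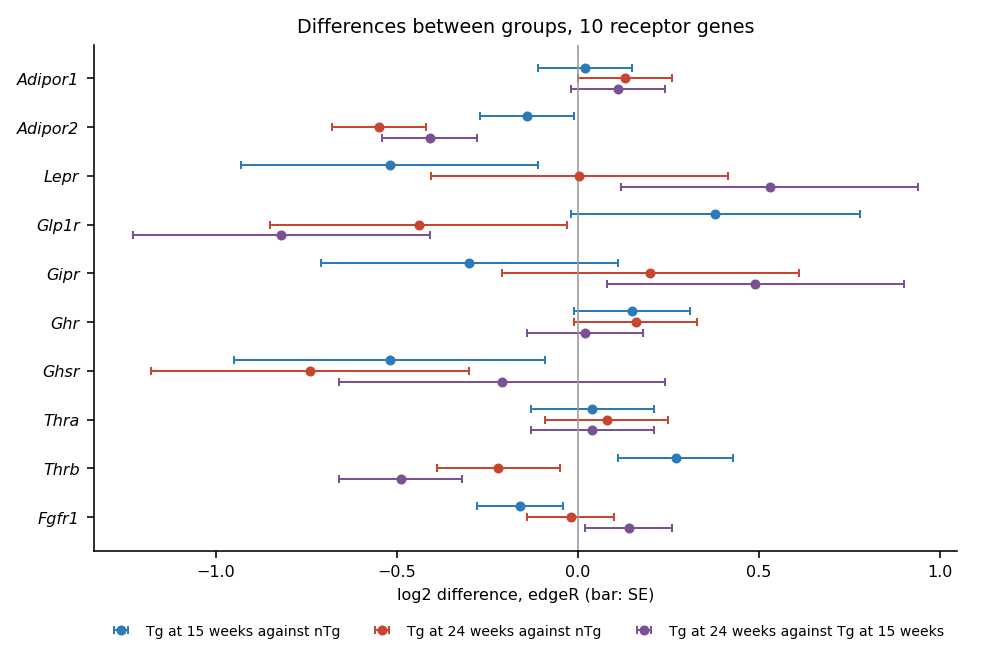
Log2 differences of the 10 receptor genes in 3 comparisons from edgeR, with bars for SE. Adipor2 at 24 weeks lies at -0.55 against nTg and -0.41 against Tg at 15 weeks, and no gene of the 10 passed the adjusted threshold.

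For each member, the genes whose log2 CPM followed it most closely over the 9 libraries were sought among 14937 genes, and the 3 of highest Pearson r are given as a description. Each r is the top of a search over libraries that share group, depth and dissection, so no p is given. For Adipor1 these were Me1 (r = 0.95, Spearman's rho = 0.92), Cat (0.93 and 0.95) and 6030419C18Rik (0.93 and 0.93). For Adipor2 they were 1700016P03Rik (0.94 and 0.9), Spry3 (0.93 and 0.93) and Klhl3 (0.93 and 0.85), so the nearest genes to the pair were not shared. Lepr was followed by Tmem238 (0.94 and 0.92), Ctsc (0.94 and 0.92) and Gm44250 (0.94 and 0.87), and Glp1r by Apln (0.95 and 0.88), Unc50 (0.94 and 0.88) and Zfp346 (0.92 and 0.87). The nearest to Gipr were Tbx3 (0.96 and 0.98), Cacng6 (0.95 and 0.87) and Rpl34-ps1 (0.94 and 0.87), and the nearest to Ghr were Snap91 (0.96 and 0.9), Zc4h2 (0.93 and 0.97) and Fuca2 (0.9 and 0.87). The thyroid hormone receptors also had different nearest genes, with Maea (0.99 and 0.9), Klc1 (0.98 and 1.0) and Abcf2 (0.98 and 0.93) for Thra and C330007P06Rik (0.98 and 0.92), Myo5a (0.97 and 0.95) and Ttbk2 (0.97 and 0.93) for Thrb. Fgfr1 was followed by Tax1bp3 (0.91 and 0.85), Homer3 (0.91 and 0.82) and Mif4gd (0.89 and 0.97), and Ghsr, with a mean under 1 CPM, was not searched.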

How the data were processed

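RNA of mouse hippocampus was measured in 9 libraries; per the labels' protocols, RNA was extracted with the RareRNA kit and libraries were made with the KAPA mRNA HyperPrep kit. The deposited tables hold raw read counts, TPM and FPKM for the same libraries, each made by the authors, and all 3 were used. Alignment with HISAT2 2.1.0, counting with featureCounts 2.0.0 and the build GRCm38 are named in the submitters' processing notes, beside Trimmomatic 0.38, CASAVA and DESeq2 1.26.0, without settings; the strand setting of the counting is not given in the sources used here. Gene coordinates are those of GENCODE M21, in which all 55536 identifiers were found.

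Counts were tested with edgeR 4.0.16 in R 4.3.3 (glmQLFit and glmQLFTest, TMM, filterByExpr, two-sided, Benjamini-Hochberg over all genes fitted, threshold 0.05). Genotype over both ages had age as a term. The comparisons of Tg at each age with the 3 nTg libraries of both ages, and with each other, came from 1 fit with 3 groups, and the interaction from a fit with 4 groups (19574 genes). An SE is the absolute log2 difference divided by the root of the F statistic. Levels between genes and ratios were compared on deposited TPM with a pseudocount of 0.01 by exact permutation over libraries (scipy 1.17.1); FPKM was an alternative. Other alternatives were DESeq2 1.42.0, limma 3.58.1 (voom, or TPM with a pseudocount of 0.1 or 1), other size factors, no filter, a replicate block and libraries left out. The fitting step was tested on simulated counts.

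The 10 members, the 8 pathway lists and the 16 marker lists were chosen with earlier results of these data known. Named list genes are those past the threshold in any comparison and the 2 of smallest p per list and comparison, of which a selection is given. Genes named as most like a member are the 3 of highest Pearson r of log2 CPM (prior count 2) with a mean of at least 1 CPM. No pair of libraries held identical values. Same-numbered libraries did not deviate together (correlations of -0.24 to 0.29), so the replicate numbers were not taken as pairs.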

Additional observations from a re-analysis of the deposited data

Results flagged for a closer look

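Glp1r stood at 7.87 CPM in Tg_15w_3, above the other 5 Tg libraries (1.73 to 3.65 CPM). The gap to the next library was 0.687 of the range of the 6 Tg libraries, beyond Dixon's 95% critical value of 0.625. Of 12 such checks (10 receptors and 2 ratios) this was the only one beyond it. Chance gives about 1 in 20 for each single check, so 1 among 12 is not unusual.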

How the results depend on the processing

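No receptor passed the edgeR threshold in any comparison when 1 library was left out, without Tg_24w_3 and nTg_24w_1, with other size factors, without a filter, with limma on TPM or with the replicate block. The count in Tg at 24 weeks against nTg was 1 (Adipor2) with DESeq2 and 1 with voom. The neighbouring levels that differed numbered 6 to 7 when 1 library was left out, and 0 ratios passed in each alternative. Of 725 alternative values of single receptors, 660 kept direction and side of the threshold and 63 changed sign, all of differences that had not passed; the cause was not tested.

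Sign changes in Tg against nTg over both ages were Glp1r 0.2, Gipr -0.19 and Thrb 0.13 without both libraries, Gipr -0.22 and Thrb 0.16 with voom, and Gipr -0.09 and -0.03 and Thra -0.01 and -0.01 with TPM. In Tg at 15 weeks against nTg they were Adipor1 -0.005 and -0.004 with TPM, Adipor2 0.01 against the 15-week nTg library alone and Glp1r -0.07 with voom. In Tg at 24 weeks against nTg, Lepr was -0.02 with DESeq2's size factors, -0.01 without a filter, -0.02 with DESeq2, -0.18 and -0.1 with TPM, -0.02 with the replicate block and -0.16 against 24-week nTg alone. Gipr was -0.08 with voom and -0.15 without both libraries, Thra -0.04 and -0.04 with TPM, Fgfr1 0.01 with voom and Rapgef4 0.02 (-0.41 with all libraries) without both libraries. Between the ages of Tg, Ghr was -0.002 without a filter and -0.07 and -0.05 with TPM, and Thra -0.05 and -0.05 with TPM. TPM with a pseudocount of 0.1 moved the median of all genes by -0.115 in Tg at 24 weeks against nTg, by -0.102 between the ages of Tg and by -0.103 in the interaction.

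Leaving out 1 library gave, for Tg against nTg over both ages, Lepr -0.31 to 0.02, Glp1r -0.38 to 0.11, Gipr -0.2 to 0.19, Thra -0.0007 to 0.18 and Thrb -0.23 to 0.06. It gave Adipor1 -0.06 to 0.12, Glp1r -0.26 to 0.71 and Thra -0.07 to 0.16 for Tg at 15 weeks, and Lepr -0.28 to 0.29, Gipr -0.18 to 0.47, Thra -0.06 to 0.21 and Fgfr1 -0.05 to 0.03 for Tg at 24 weeks. Between the ages of Tg it gave Ghr -0.08 to 0.09, Ghsr -0.44 to 0.05 and Thra -0.1 to 0.16, and the Thra to Thrb ratio differed by -0.04 to 0.14.

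Over all genes, edgeR called 0, 0, 23, 6 and 0 in the comparisons in the order given above (over both ages, 15 weeks, 24 weeks, between ages, interaction). Without a filter it called 135, 65, 559, 701 and 17, DESeq2 35, 2, 218, 284 and 1, and voom 7, 5, 238, 102 and 1. Without both libraries 3, 0, 107, 71 and 4 were called. With TPM 12 and 12 were called at 24 weeks and 2 and 2 between ages, and 4 at 24 weeks against 24-week nTg alone. Leaving out 1 library gave 0 to 5, 0 to 0, 4 to 36, 1 to 14 and 0 to 1. The replicate block gave 1, 0, 15 and 4, and the libraries did not each correlate best with their own number; it changed no call among the receptors, but Dusp6 at 24 weeks no longer passed with it (-0.81, edgeR adjusted p = 0.087), while Drd1 did, and the interaction was not fitted with it. With 3 libraries a group and 5 to 25 reads for Ghsr and Gipr, the SE in Tg at 24 weeks against nTg was 0.44 and 0.41. It was also 0.41 for Lepr and for Glp1r. The part of depth in these errors was not tested.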
